A study of Homo sapiens with 17 samples.

Results

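The nuclear-encoded subunits of the respiratory chain were followed across 17 libraries of PC3M cells, a metastatic derivative of the human prostate cancer line PC3. Members were the genes whose symbols begin as subunits of complex I (NDUFA, NDUFB, NDUFC, NDUFS or NDUFV with a digit), are SDHA to SDHD of complex II, begin with UQCR of complex III, with COX4 to COX8 of complex IV, or with ATP5 of the ATP synthase, leaving out ATP5G1, ATP5G2 and ATP5G3. Of 14613 genes in all, 82 were members, 80 of them in a table of the proteasome inhibitor MG132 and 82 in a table of heat shock. By name, 74 are subunits or their isoforms: 36 of complex I, 4 of complex II, 8 of complex III, 14 of complex IV and 12 of the ATP synthase. The other 8 are copies, antisense genes or genes that only share the prefix, and they are described apart from the subunits.

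The respiratory chain sits in the inner mitochondrial membrane. Complexes I and II pass electrons from NADH and succinate to ubiquinone, complex III passes them to cytochrome c, and complex IV passes them to oxygen, while the ATP synthase uses the resulting proton gradient to make ATP. Each complex except complex II also holds subunits made from mitochondrial DNA, so the nuclear-encoded subunits are made in the cytosol, imported as proteins and built in beside them by assembly factors.

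Gene expression was read with QuantSeq FWD, which sequences 1 tag near the 3' end of each captured transcript, so that levels of different genes can be compared without dividing by length. In the MG132 table, a control siRNA without a target (siNT) was combined with the solvent DMSO (2 libraries) or with MG132 (2), and cells given an siRNA against the oxygenase JMJD6 (siJMJD6, 2) and knockout cells of the stress transcription factor HSF1 (HSF1 KO, libraries A and B) received MG132, at 2.5 µM for 4 hours. In the heat shock table, siNT cells were left at 37 °C (basal, 3 libraries) or heat shocked (3), and siJMJD6 cells were heat shocked (3), for 1 hour at 42 °C with 2 hours of recovery. Transfection with siRNA lasted 72 hours. The labels do not say whether KO libraries A and B are separate clones, and siJMJD6 or KO cells without stress were not analysed here, so an effect under stress cannot be told apart from one present before it.

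Library totals lay between 1505826 and 1819640 normalised counts, and log2 values of replicates correlated across genes at 0.919 to 0.953 in the MG132 table and 0.967 to 0.977 in the heat shock table. JMJD6 was between 7.66 and 26.6 normalised counts in the siJMJD6 libraries and between 70.9 and 253 in all others. Under MG132 it was at 80.5 and 79.4 in the KO libraries and at 167 and 130 in siNT cells, with 88.7 and 70.9 in DMSO. HSF1 was at 285 and 175 in the KO libraries and at 1145 or more in all others. Its tag at the 3' end does not check the deletion itself. Of the epithelial markers, which a carcinoma line should hold, 5 of 5 had a mean of at least 10 normalised counts in each table. So did 4 of 4 mesenchymal markers, but 0 of 5 markers of androgen receptor-positive prostate. Of the blood and immune marker genes, 0 of 5 had a row. The mitochondrially encoded subunits were not analysed here. Whether replicates came from separate cultures is not stated in the labels. The p-values therefore reflect only how far libraries of a group lie apart, and that spread may be technical.

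Genes entered the tests with 10 or more normalised counts in 2 libraries of the MG132 table or 3 of the heat shock table. That left 77 of 9778 tested genes as members in the first and 76 of 9831 in the second, with 72 subunits in each. Effects are log2 fold changes ± standard error (SE) on values to which 1 was added, and a gene is said to be called, to have risen or to have fallen only where the Benjamini-Hochberg adjusted p of limma's test over all tested genes was under 0.05.

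Most subunit genes were strongly expressed, by their means over all libraries of a table. The median tested subunit had a mean of 281 normalised counts in the heat shock table, against 53.5 for the median tested gene, and 69 of the 72 lay above that gene. In the MG132 table, normalised separately, the medians were 289 and 44.8, again with 69 of 72 above. The highest means in the heat shock table were those of ATP5L, subunit g of the ATP synthase, at 2195, UQCRH, the hinge protein of complex III, at 2038, and COX7C of complex IV at 1919. COX6C followed at 1894, the stalk subunit ATP5O at 1529.5 and ATP5I, subunit e, at 1360.1. UQCRB and UQCRQ of complex III had 1221 and 966, and COX7A2 of complex IV 962. In complex I, the accessory genes NDUFS6 (1302), NDUFB9 (922) and NDUFA1 (866) were highest.

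Subunits grouped here as core spanned a wide range. In complex I, core genes in the heat shock table included NDUFV2 at 327, NDUFS3 at 307, NDUFV1, which binds NADH, at 268, NDUFS8 at 179.6, NDUFS7 at 67.7 and NDUFS1 at 52.6. In complex III, UQCRC2 had 314, UQCRC1 189 and the iron-sulfur protein UQCRFS1 156. In complex II, the flavoprotein SDHA had 207, the membrane anchor SDHC 182, the iron-sulfur subunit SDHB 151 and the other anchor SDHD 42.5, the lowest mean of any tested subunit. In the F1 part of the ATP synthase, the beta and alpha subunits of the catalytic head, ATP5B and ATP5A1, had 1100.3 and 246, and the central stalk subunits ATP5E, ATP5D and ATP5C1 had 112, 99.99 and 96.0. The range from highest to lowest subunit was 51.6-fold in this table and 204-fold in the MG132 table. Of the tissue isoforms, COX6B2 of testis and COX8C were not tested, with at most 1.97 and 4.93 normalised counts in any heat shock table library, against 236 or more for COX6B1 and 748 or more for COX8A.

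Summed over all subunits, the respiratory chain took a near-constant share of the heat shock libraries. It held 2.13% ± 0.0186 (SD, n = 3) of normalised counts at baseline, 2.15% ± 0.0926 (SD, n = 3) after heat shock and 2.11% ± 0.0427 (SD, n = 3) after heat shock with siJMJD6. The siJMJD6 and siNT heat shock groups overlapped, with an exact two-sided permutation p of 0.8, where 3 libraries against 3 cannot go below 0.1. In the MG132 table the share was 2.43% and 2.71% in the DMSO libraries, 2.27% and 2.21% in siNT cells under MG132, 2.52% and 2.63% with siJMJD6 and 2.64% and 2.51% in HSF1 KO cells A and B. The siNT MG132 share was thus below that of each other group without overlap, and an exact permutation test of 2 against 2 cannot go below 0.333. As summed normalised counts, siNT MG132 had 37181 and 38119, which overlapped DMSO at 36596 and 41877. Library totals were larger in siNT MG132 (1641415 and 1724029) than in DMSO (1505826 and 1546577). Against DMSO, the lower share thus went with overlapping sums and larger totals. The sums were 45798 and 41460 with siJMJD6 and 45077 and 40262 in HSF1 KO cells A and B. Those of siNT MG132 were below both groups without overlap. In such bulk samples, fewer expressing cells and less RNA per cell cannot be told apart.

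**Figure D1:**
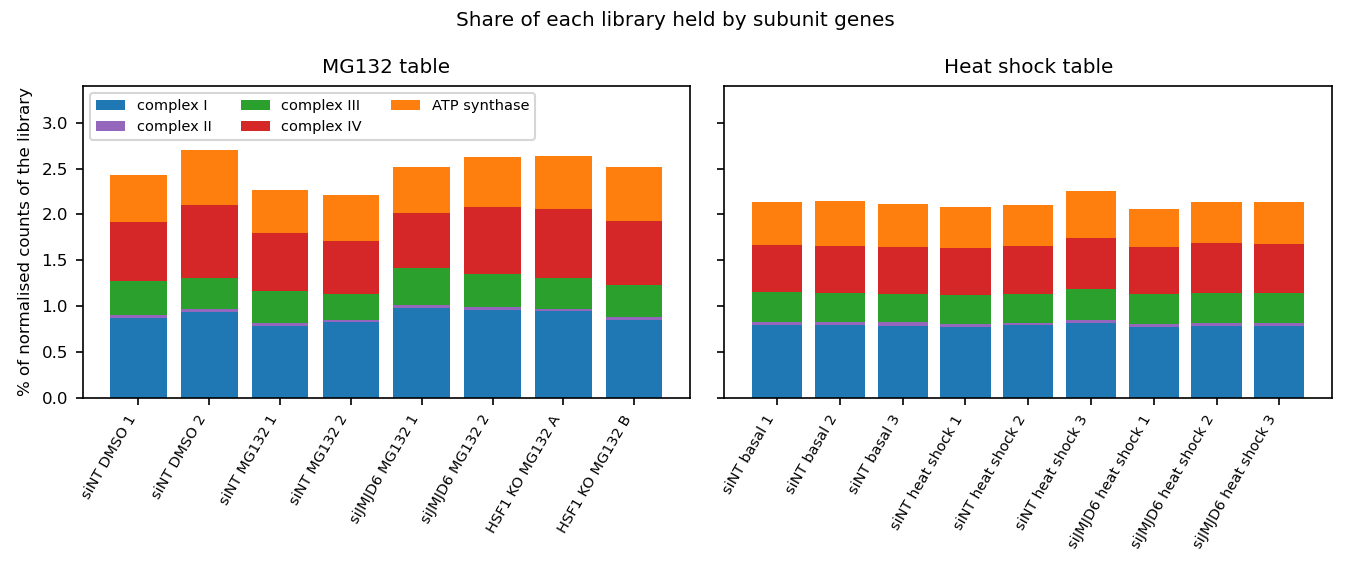
Share of each library's normalised counts (y axis, percent) held by the subunit genes of the 5 complexes, 1 stacked bar per library. The heat shock table bars (right) lie between 2.06% and 2.25%, and the 2 siNT MG132 bars (left) are the lowest of their table.

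MG132 blocks the proteasome, and its effect was asked in siNT cells. No subunit gene rose or fell. Of 77 tested members 0 were called by limma, where 0.266% of all tested genes were, and 3 had an unadjusted p under 0.05 (1 higher, 2 lower) where 5.66% of all genes had. The median member effect was -0.04, against -0.00 over all tested genes. NDUFB6, of the membrane arm of complex I, had 51.6 and 80.3 normalised counts in DMSO and 22.7 and 21.7 under MG132. Both MG132 libraries were below both DMSO libraries, a difference of -1.50 ± 0.39 with an adjusted p of 0.288 (limma, Benjamini-Hochberg). SDHD, a membrane anchor of complex II, had as low an effect at -1.50 ± 0.89, but with 24.6 and 29.1 in DMSO and 24.7 and 2.77 under MG132 its groups overlapped (adjusted p = 0.911). NDUFV1, which binds NADH, had 267 and 337 in DMSO and 363 and 562 under MG132, the largest positive effect among subunits at 0.59 ± 0.27, with an adjusted p of 0.871. Its groups did not overlap either. Among all members the highest effect was that of ATP5L2, a copy of ATP5L, at 1.03 ± 0.53 (adjusted p = 0.904), from 11.4 and 5.51 to 18.5 and 16.1. The count stayed at 0 under every alternative of normalisation, filter, spread and left-out library that was run.

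Heat shock was compared with the basal state in siNT cells, 3 libraries against 3. One subunit gene fell and none rose, which is 1 of 76 tested members (1.32%), beside 4.09% called over all tested genes (2.86% higher and 1.23% lower). NDUFV3, a small accessory subunit on the NADH-binding tip of complex I, had 64.8, 53.2 and 48.5 normalised counts at baseline and 25.01, 41.1 and 34.8 after heat shock. All heat shock libraries were below all basal libraries, and the effect was -0.72 ± 0.19 (limma adjusted p = 0.0196). This call was lost without basal library 1, basal library 2 or heat shock library 1, where its adjusted p reached up to 0.183. Without heat shock library 3, 2 members were called, 1 in each direction.

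The remaining members moved little after heat shock. SDHA, the succinate-oxidising flavoprotein, had 222, 228.3 and 228.3 normalised counts at baseline and 179, 170.4 and 185 after heat shock. Its groups did not overlap and its effect was -0.34 ± 0.11, with an adjusted p of 0.0647. NDUFB6 had the largest positive effect at 0.41 ± 0.17, from 77.1, 69.5 and 59.4 to 83.1, 95.03 and 94.7, again without overlap (adjusted p = 0.242). Positive effects were found for 50 members and negative ones for 26, with a median of 0.06 against -0.00 over all tested genes. All but 1 of the 7 core genes of complex I were among the negative ones and 23 of its 29 accessory genes among the positive ones, by effects that, apart from NDUFV3, did not pass the test.

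**Figure D2:**
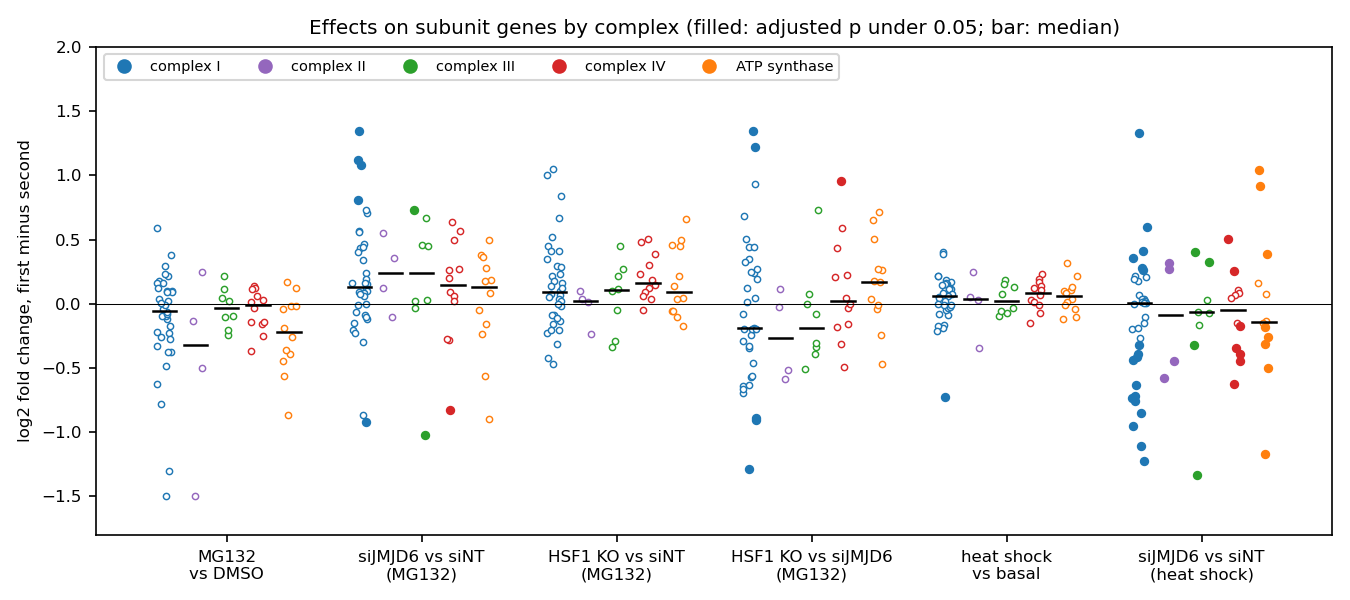
Log2 fold change (y axis) of each tested subunit gene in the 6 comparisons (x axis), coloured by complex, with filled points called at an adjusted p under 0.05 and bars at the median of each complex. Filled points are absent for MG132 against DMSO and HSF1 KO against siNT and make up 41 of 72 in siJMJD6 against siNT after heat shock.

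With siJMJD6, after heat shock, the subunit genes of every complex moved in both directions. The comparison asked what lowering JMJD6 does in heat-shocked cells, with 3 libraries against 3. Of 76 tested members, 16 rose and 27 fell, and among the 72 subunits 15 rose and 26 fell. The members' 56.6% called stands beside 46.4% over all tested genes (21.4% higher and 24.9% lower), and beside 54.3% over the 5612 tested genes whose mean was at least that of the lowest subunit, so the share itself is not particular to the respiratory chain. The median member effect was -0.03, as it was over all genes, and the effects' interquartile range was 0.60 against 0.86. Of the 76 tested members, 6 were called and changed by at least 2-fold. They were NDUFV3 and ATP5E upwards and UQCRC2, NDUFA11, ATP5J2 and NDUFA7 downwards. Over all tested genes 1628 of 9831 (16.6%) did so, a larger share than among members. Every one of the 43 called members kept its sign under all alternatives, and 26 remained called whichever single library was left out. Without siNT heat shock library 1, 9 members were called higher and 25 lower, and without siNT heat shock library 3, 22 higher and 20 lower.

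In complex I, 6 of 36 subunit genes rose and 12 fell. NDUFA11 (chromosome 19, 5891276 to 5904006 in GRCh38), an accessory subunit of the membrane arm, had the smallest adjusted p of all members. It had 762, 809 and 717 normalised counts in siNT heat shock libraries and 335, 293 and 351 with siJMJD6, against 659, 667 and 639 at baseline. The siJMJD6 libraries were below all 6 siNT libraries, and the effect was -1.22 ± 0.09 (limma adjusted p = 1.04e-13).

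NDUFB2, also of the membrane arm, had 472, 497 and 579.5 normalised counts in siNT heat shock libraries and 283, 278.5 and 295 with siJMJD6, without overlap, a fall of 0.85 on the log2 scale (SE 0.09, adjusted p = 3.1e-09). NDUFB5 and NDUFC1 of that arm fell by 0.95 and 0.72. NDUFA7, an accessory subunit of the matrix arm, fell by 1.11, from 74.4, 81.1 and 70.6 to 38.1, 32.0 and 33.3 normalised counts. Several accessory genes moved less and in the other direction, such as NDUFA2 at 0.41 ± 0.13, NDUFA13 at 0.36 ± 0.08 and NDUFB8 at 0.28 ± 0.09. NDUFA12, NDUFA3 and NDUFB7 fell by 0.42, 0.39 and 0.32. The calls of NDUFA12 and NDUFB8 were lost without single libraries, with adjusted p up to 0.207 and 0.0848. That of NDUFA12 was also lost with quantile normalisation.

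The part of complex I that binds NADH was split. NDUFV1, which carries the flavin that NADH reduces, had 193, 219.9 and 248 normalised counts in siNT heat shock libraries and 337, 319.7 and 340.2 with siJMJD6, a rise of 0.60 ± 0.11 (limma adjusted p = 2.15e-05). NDUFV2, its iron-sulfur partner, had 379.7, 385 and 377 and then 250.5, 243 and 243, a fall of 0.63 on the log2 scale (SE 0.09, adjusted p = 9.79e-07). NDUFV3, on the same tip, had 25.01, 41.1 and 34.8 and then 83.4, 85.9 and 84.3, a rise of 1.33 ± 0.19 (adjusted p = 5.57e-07).

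In all 3 genes the siJMJD6 libraries did not overlap those of either siNT group. For NDUFV3, the only member that heat shock lowered, the siJMJD6 heat shock libraries stood above the basal libraries too, and both comparisons share the siNT heat shock libraries. Of the other core genes, NDUFS8 and NDUFS7, which carry iron-sulfur clusters, fell by 0.74 and 0.44, and NDUFS3 (0.22 ± 0.10, adjusted p = 0.0775) and NDUFS1 (-0.19 ± 0.20, adjusted p = 0.446) did not pass the test. The call of NDUFS7 was lost without siNT heat shock library 1 or 2 or siJMJD6 library 2, with adjusted p up to 0.197. It was lost with quantile normalisation too.

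All 4 genes of complex II were called, in opposite directions. SDHA rose by 0.28 ± 0.11 and the anchor SDHC by 0.32 ± 0.12, while SDHB fell by 0.44 (SE 0.14) and the anchor SDHD by 0.58 (SE 0.21), with limma adjusted p of 0.0349, 0.0261, 0.01 and 0.0225. SDHB had 175, 149 and 178.5 normalised counts in siNT heat shock libraries and 96.3, 129 and 149.0 with siJMJD6, so its nearest libraries almost touched. SDHA had 179, 170.4 and 185 and then 214.5, 232 and 202, which is near its 222 to 228 at baseline. Each of the 4 calls was lost without at least 1 library, with adjusted p up to 0.139 for SDHA, 0.182 for SDHC, 0.131 for SDHB and 0.137 for SDHD. Those libraries were siNT heat shock 1 or 2 and siJMJD6 1 or 2 for SDHA, siNT heat shock 1 and siJMJD6 2 for SDHC, siJMJD6 1 for SDHB, and siNT heat shock 2 or 3 and siJMJD6 1 for SDHD.

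In complex III, 2 of 3 core genes fell and 2 small subunits rose. UQCRC2 (chromosome 16, 21952660 to 21983660), a large core protein on the matrix side, had 428, 403 and 401 normalised counts in siNT heat shock libraries and 179.7, 168 and 141 with siJMJD6, against 373, 365.5 and 365 at baseline. No siJMJD6 library came near a siNT library, and the fall of 1.33 (SE 0.10, limma adjusted p = 5.48e-13) was the largest of any member. UQCRC1, its partner, fell by 0.32, a call lost without single libraries (adjusted p up to 0.226 across siNT heat shock 2 or 3 and siJMJD6 2 or 3). UQCRFS1, the iron-sulfur protein, had an effect of -0.16 ± 0.12 that did not pass. UQCRQ, next to the ubiquinone site, rose by 0.33 ± 0.08 and UQCR11 by 0.41 ± 0.11. The accessory genes UQCRH, UQCRB and UQCR10 had effects of -0.07, 0.03 and -0.06 without passing.

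In complex IV, 2 of 12 tested genes rose and 5 fell. COX5B, a nuclear-encoded subunit on the matrix side, had 462, 469 and 464.5 normalised counts in siNT heat shock libraries and 682, 649 and 653 with siJMJD6, a rise of 0.51 ± 0.08 (limma adjusted p = 7.61e-06). COX5A, its neighbour on that side, had 251, 272 and 279.8 and then 171, 181 and 168, a fall of 0.63 on the log2 scale (SE 0.11, adjusted p = 1.32e-05). Neither gene's groups overlapped, and the siJMJD6 libraries lay outside the basal ones too, which were 489.8, 435 and 480.2 for COX5B and 249, 302 and 246 for COX5A. COX7B, NDUFA4 and COX8A fell by 0.45, 0.39 and 0.34. The abundant COX7C fell by 0.17 and COX7A2 rose by 0.26 ± 0.09, both calls lost without single libraries. COX7C was called in only 6 of 17 alternatives. It was also lost with quantile normalisation, with scaling by the trimmed mean of M values (TMM) and with the replicate block. COX6C was at 0.09 ± 0.09 and COX4I1 at 0.11 ± 0.08 without passing.

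In the ATP synthase, 3 of 12 genes rose and 5 fell. ATP5E, the epsilon subunit of the central stalk, had 82.0, 86.5 and 91.2 normalised counts in siNT heat shock libraries and 169, 167 and 203 with siJMJD6, a rise of 1.04 ± 0.15 (limma adjusted p = 8.94e-07). ATP5H, subunit d of the outer stalk, had 249, 247 and 277 and then 411, 534 and 524.5, a rise of 0.92 ± 0.11 (adjusted p = 1.59e-08). ATP5J2, subunit f of the membrane part, had 330.5, 207 and 309.9 and then 126, 115 and 127, a fall of 1.17 (SE 0.14, adjusted p = 1.25e-08). The groups of these 3 genes did not overlap.

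The catalytic beta subunit ATP5B fell from 1241, 1227 and 1283 to 837, 888 and 923 normalised counts, by 0.50 on the log2 scale (SE 0.07, adjusted p = 8.81e-07). Its partner ATP5A1 fell by 0.26 and ATP5D rose by 0.39 ± 0.16, calls that were lost without single libraries (adjusted p up to 0.32 and 0.205). The ATP5A1 call was also lost with TMM scaling and with quantile normalisation, and held in only 7 of 17 alternatives. The most abundant gene, ATP5L, fell by 0.32 and the stalk subunit ATP5O by 0.18, the latter called in only 4 of 9 fits with a library left out and not called with TMM scaling. ATP5I had an effect of 0.16 ± 0.10 and the gamma subunit ATP5C1 of -0.15 ± 0.14, neither of which passed.

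**Figure D3:**
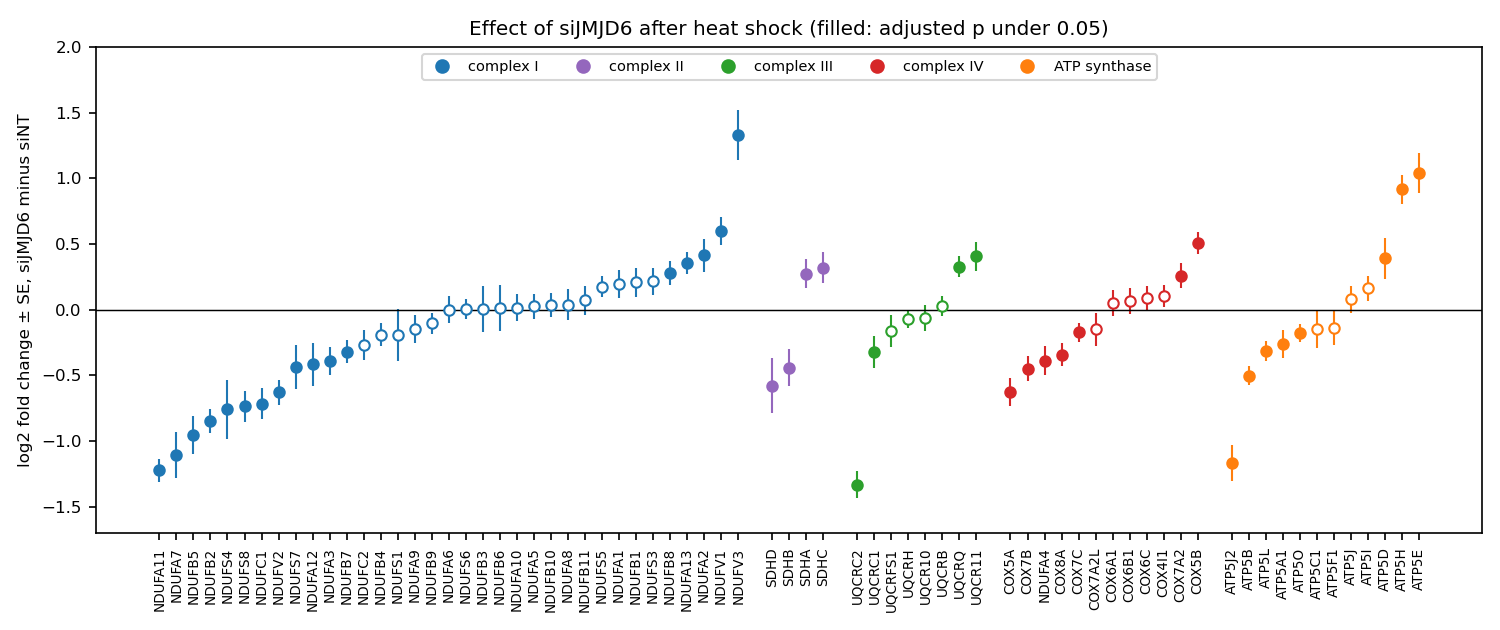
Log2 fold change ± SE of siJMJD6 minus siNT after heat shock (y axis) for the tested subunit genes reported by name (x axis), sorted within each complex, with filled points called at an adjusted p under 0.05. Filled points lie on both sides of 0 in all 5 complexes, from -1.33 for UQCRC2 to 1.33 for NDUFV3.

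Because the tags were counted per gene near the 3' end, the annotation there bears on these values. In GENCODE release 29, another gene overlaps the last 300 bases on the same strand for 16 of the 74 subunits and on the opposite strand for 12. Among the genes above, the end of ATP5J2 is shared with PTCD1 and the readthrough gene ATP5MF-PTCD1, and those of NDUFA11, NDUFA7, NDUFA13, NDUFB8, NDUFC1, SDHD, UQCR11, COX8A, ATP5L and ATP5O with other annotated genes on their strand. NDUFV2 has both a neighbour on its strand and the antisense gene NDUFV2-AS1 across from its end. Across from the end lie BRAF for NDUFB2, KCTD2 for ATP5H, TUBB1 for ATP5E, TFPT for NDUFA3, SMIM27 for NDUFB6 and AC005329.1 for NDUFS7. UQCRC2, COX5A, COX5B, NDUFV1, NDUFV3, NDUFA2, UQCRQ and ATP5B have no such neighbour. The strand setting of the authors' counting is unknown here, and tags of such pairs may have been split or dropped.

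The stretches before the starts of NDUFV2 and NDUFV3, and of COX5A and COX5B, are shown because the genes of each pair moved in opposite directions with siJMJD6. They come from RefSeq (GRCh38.p14) and run 5' to 3' on the gene's strand. Each is the longest part before the RefSeq start that lies in no exon of GENCODE release 29. That release has NDUFV3 begin upstream, at 42879644, so the NDUFV3 stretch lies inside the gene as annotated there. Capitals mark matches on either strand to a GC box (GGGCGG) or an ETS core (CCGGAAG). The CCAAT box (CCAAT) was searched too and has 2 matches in the NDUFV3 stretch, at -169 and -65, left in lower case. Also searched on both strands, with no match in the printed stretches, were the NRF1 core (GCGCA, any base, GCGC), the YY1 motif (AA, any base, ATGGCG) and the heat shock element (GAA, 2 bases, TTC, 2 bases, GAA).
NDUFV2, chr18:9102449-9102629, plus strand: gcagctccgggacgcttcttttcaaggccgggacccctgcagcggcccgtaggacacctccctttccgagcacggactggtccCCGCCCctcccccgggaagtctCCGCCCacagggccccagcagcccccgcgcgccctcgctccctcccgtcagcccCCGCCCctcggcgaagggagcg
NDUFV3, chr21:42893059-42893264, plus strand: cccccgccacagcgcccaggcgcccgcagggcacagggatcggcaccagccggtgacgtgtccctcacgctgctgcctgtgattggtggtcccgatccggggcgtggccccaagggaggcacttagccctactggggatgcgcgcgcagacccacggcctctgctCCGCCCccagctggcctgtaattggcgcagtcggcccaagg
COX5A, chr15:74938169-74938323, minus strand: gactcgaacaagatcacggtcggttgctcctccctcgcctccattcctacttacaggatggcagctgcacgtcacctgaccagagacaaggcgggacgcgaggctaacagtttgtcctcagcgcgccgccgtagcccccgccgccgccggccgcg
COX5B, chr2:97645812-97646039, plus strand: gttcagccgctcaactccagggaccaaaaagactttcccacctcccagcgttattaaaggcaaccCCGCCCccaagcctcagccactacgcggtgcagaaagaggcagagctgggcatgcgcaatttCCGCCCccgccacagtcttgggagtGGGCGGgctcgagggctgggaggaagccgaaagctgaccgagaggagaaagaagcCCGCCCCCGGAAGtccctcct
The last GC box and the ETS match of the COX5B stretch stand directly side by side and print as a single run of capitals. The bases between each stretch and the start were searched but are not shown, and they hold further matches: 4 GC boxes for COX5A, at -83, -59, -42 and -16 from the start, 1 GC box for NDUFV3 at -45 and 1 ETS core for COX5B at -5. NDUFV2 has a YY1 match after its start, at 41. The capitals thus do not count all matches of a gene.

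Promoters of 300 bases (250 before the start and 50 after it) were matched for 62 of the 74 subunits. The YY1 motif was in 25.8% of them against 3.19% of all 35116 RefSeq promoters of that length, the NRF1 core in 25.8% against 5.78%, and the ETS core in 30.6% against 10.3%. NRF1, YY1 and the ETS factor GABP are textbook regulators of respiratory chain genes. The heat shock element was in 0 of 62 and in 0.49% of all. By the siJMJD6 effect after heat shock, the YY1 motif was in 0 of 12 promoters of genes that rose, in 7 of 22 of genes that fell and in 9 of 26 of tested genes not called. The ETS core was in 5, 5 and 9 of these, and the NRF1 core in 2, 6 and 7. These are descriptions of letters in a window, with no test of a difference and nothing shown of binding.

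Under MG132, siJMJD6 against siNT (2 libraries each) called 8 of 77 tested members, 5 higher and 3 lower. That is 10.4%, near the 13.6% called over all tested genes (6.22% higher and 7.35% lower). NDUFA2, NDUFB6, NDUFA13 and NDUFV3 of complex I and UQCRQ of complex III rose, and UQCRC2 of complex III, NDUFB2 of complex I and COX5A of complex IV fell. The direction of these counts depended on the scaling: with scaling factors by the trimmed mean of M values (TMM), which moved the median effect of all genes from -0.05 to -0.15, 1 member rose and 5 fell, and with quantile normalisation 3 rose and 3 fell. The sign of each of the 8 called members was the same under every scaling.

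NDUFA2, an accessory subunit of the matrix arm, had 109 and 131 normalised counts in siNT and 276 and 248 in siJMJD6 libraries, a rise of 1.12 ± 0.25 (limma adjusted p = 0.0116). UQCRC2 had 347 and 408 and then 198.9 and 172, a fall of 1.02 (SE 0.25, adjusted p = 0.0186). In both genes the siJMJD6 libraries lay outside the siNT MG132 and the DMSO libraries, which were 159 and 152 for NDUFA2 and 308.5 and 390.01 for UQCRC2.

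NDUFB2 fell from 459 and 326 to 202 and 206 (-0.92 ± 0.26, limma adjusted p = 0.0374). NDUFB6 rose from 22.7 and 21.7 to 41.5 and 80.9 (1.35 ± 0.39, adjusted p = 0.0388), with its DMSO libraries at 51.6 and 80.3. COX5A fell from 235 and 276 to 148 and 138 (-0.83 ± 0.24, adjusted p = 0.0415). The groups compared were apart in these 3 genes, by little for NDUFB6 relative to the spread of its siJMJD6 libraries.

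NDUFA13 rose from 952 and 1047 to 2201 and 1395, UQCRQ from 971 and 1016 to 1955 and 1386, and NDUFV3 from 54.6 and 39.7 to 109 and 90.2, by 0.81 ± 0.25, 0.73 ± 0.23 and 1.08 ± 0.34. Their limma adjusted p were 0.0448, 0.0495 and 0.0499, just inside the threshold. All 3 were higher in both siJMJD6 libraries than in any siNT library. Over all 77 members, the 8 included, the median effect was 0.12 against -0.05 over all tested genes, with 51 positive and 26 negative effects, and 21 members had an unadjusted p under 0.05 where 28.3% of all genes had.

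Each of these 8 calls was lost without at least 1 library. In all, 0 members were called without siNT MG132 library 1, and 2 without siNT MG132 library 2 or HSF1 KO library A. The count was 3 without DMSO library 1, DMSO library 2 or KO library B, 5 without siJMJD6 library 1 and 10 without siJMJD6 library 2, and these counts can include other members than the 8. NDUFA2 was lost only without siNT MG132 library 1, and UQCRC2 without either siNT MG132 library.

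Several low members also differed strongly within groups. SDHD had 24.7 and 2.77 normalised counts in siNT MG132 libraries 1 and 2 and 3.27 and 26.1 in siJMJD6 libraries 1 and 2. NDUFB3 had 83.4 and 26.4 and then 11.8 and 131. In all, 16 of 72 subunit genes were at least 1.5-fold lower in siNT MG132 library 2 than in library 1, and 8 of these were likewise lower in siJMJD6 library 1 than in library 2. Replicates of 7 subunit genes differed by over 2-fold in each of these groups, against 0 in DMSO and 1 in HSF1 KO cells. The same was not counted over all tested genes, so this spread is not shown to be particular to subunits.

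**Figure D4:**
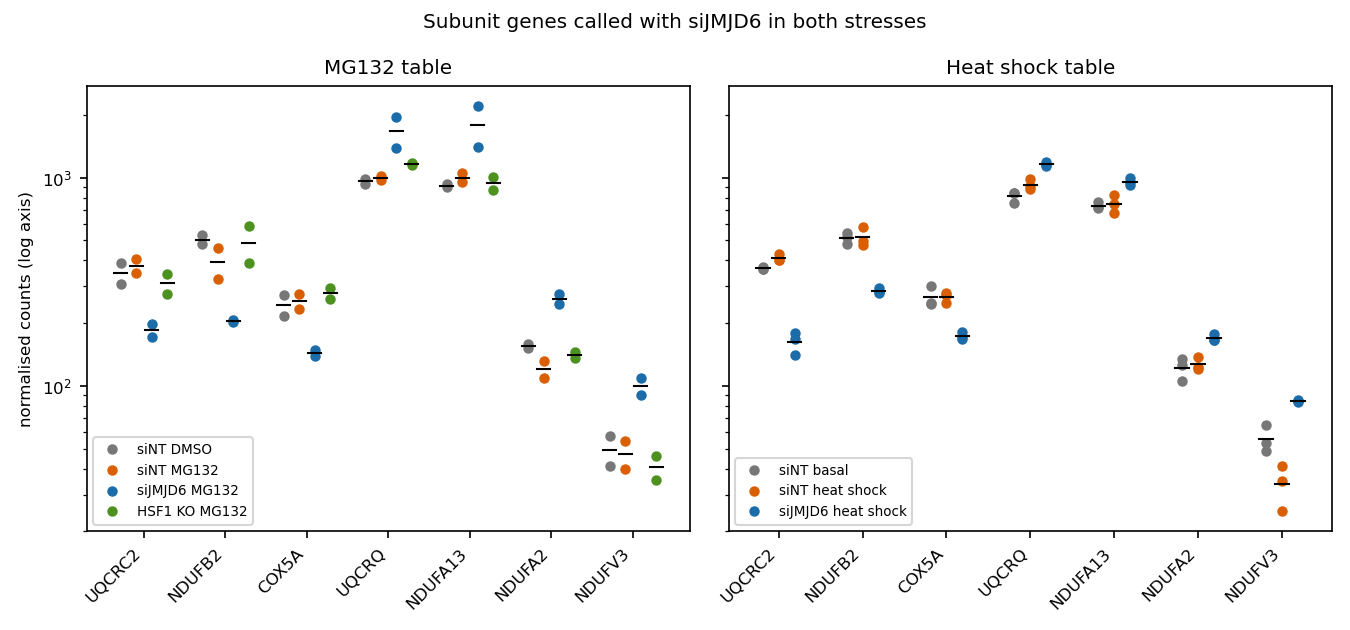
Normalised counts (y axis, log scale) of the 7 subunit genes called with siJMJD6 in both stresses, 1 point per library and a bar at each group mean, with the MG132 table at left and the heat shock table at right. The siJMJD6 points lie below all siNT points for UQCRC2, NDUFB2 and COX5A and above them for UQCRQ, NDUFA13, NDUFA2 and NDUFV3.

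The siJMJD6 comparisons under the 2 stresses came from separate libraries and tables and could be set beside each other. Of the 8 members called under MG132, 7 were called after heat shock too, all with the same sign: UQCRC2, NDUFB2 and COX5A fell and NDUFV3, NDUFA2, NDUFA13 and UQCRQ rose. They made up 87.5% of the MG132 calls and 16.3% of the heat shock calls, where over all genes tested in both tables the shares were 83.3% and 24.5%. NDUFB6 was the exception, with 1.35 ± 0.39 under MG132 and 0.01 ± 0.17 after heat shock. Its siNT level also differed, being lower under MG132 than in DMSO and not lower after heat shock than at baseline, by effects that did not pass.

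Across the 76 members tested in both tables, the siJMJD6 effects correlated with a Pearson r of 0.54 and a Spearman rho of 0.56, and 64.5% had the same sign. Over all 9379 genes tested in both, the values were 0.70, 0.66 and 74%. These are descriptions across genes, which are not independent replicates, and within each table all genes share the same few libraries. NDUFA11 and NDUFA7 fell after heat shock and had effects of 0.20 ± 0.26 and -0.01 ± 0.33 under MG132. ATP5J2 had an effect of -0.89 ± 0.30 there, adjusted p = 0.0673, beside its fall of 1.17 after heat shock, and ATP5H and ATP5E had 0.49 ± 0.42 and 0.28 ± 0.32 without passing.

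**Figure D5:**
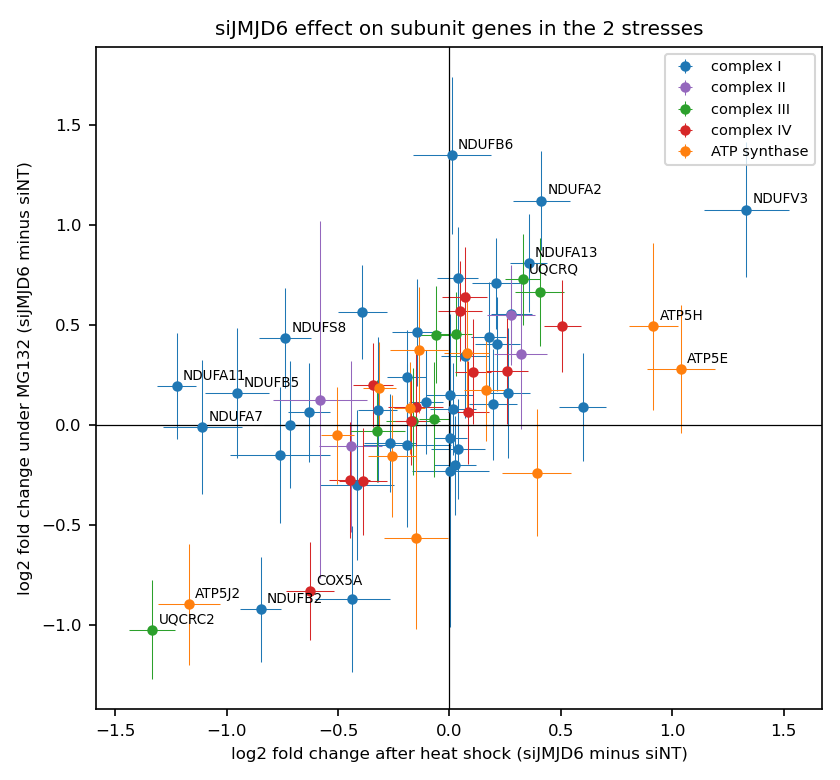
Log2 fold change of siJMJD6 minus siNT after heat shock (x axis) and under MG132 (y axis) for 72 subunit genes, coloured by complex, with bars of 1 SE. UQCRC2, NDUFB2 and COX5A are low on both axes and NDUFV3 is high on both, while NDUFB6 is high under MG132 alone.

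HSF1 KO was compared with siNT under MG132. The KO libraries' own labels name no siRNA, so whether these cells were transfected is not stated, and an effect of transfection cannot be told apart from the knockout here or in the comparison with siJMJD6. The comparison called 0 of 77 members with limma, where 1.28% of all tested genes were called. Only 4 members had an unadjusted p under 0.05, all higher in KO cells and all of complex I, where 12.8% of all genes had. NDUFA12, an accessory subunit, had 116 and 51.0 normalised counts in siNT and 164 and 158 in KO libraries, the largest difference at 1.05 ± 0.37 with an adjusted p of 0.241. NDUFB6 had 22.7 and 21.7 and then 51.4 and 40.3 (1.00 ± 0.39, adjusted p = 0.295). The groups of these 2 genes did not overlap, and the NDUFA12 value of siNT MG132 library 2 was low, whose part in the difference was not tested. The largest negative difference was that of ATP5S at -0.86 ± 0.53 (adjusted p = 0.538), and among subunits that of NDUFV1 at -0.47 ± 0.27 (adjusted p = 0.502). The median member effect was 0.10 against 0.01 over all genes.

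HSF1 KO against siJMJD6 under MG132 called 6 of 77 members, 3 higher and 3 lower, which is 7.79% against 20.8% over all tested genes (11.1% higher and 9.69% lower). NDUFB2 (584 and 388 against 202 and 206), COX5A (295 and 262 against 148 and 138) and NDUFA12 (164 and 158 against 71.3 and 54.7) were higher in KO cells, by 1.22 ± 0.26, 0.95 ± 0.24 and 1.35 ± 0.37. NDUFV3 (46.0 and 35.1 against 109 and 90.2), NDUFA13 (1005 and 875 against 2201 and 1395) and NDUFA2 (145 and 136 against 276 and 248) were lower, by -1.28 ± 0.34, -0.90 ± 0.25 and -0.89 ± 0.25. Limma adjusted p lay between 0.00693 and 0.0225, and none of these groups overlapped. The comparison shares its siJMJD6 libraries with the preceding one against siNT, and 5 genes appear in both, which is no independent evidence. With TMM scaling 5 were higher and 3 lower. Without KO library A none was called, without KO library B 2 were, and without siJMJD6 library 2 10 were. Without siJMJD6 library 1, 7 were called, all higher.

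Genes that serve the chain were taken from lists of assembly factors, of subunits outside the naming rule and of regulators. Of 49 tested assembly factors, 12 rose and 10 fell with siJMJD6 after heat shock (44.9%, near the 46.4% of all genes). UQCC2, needed to build complex III, fell from a mean of 131 to 44.4 normalised counts (-1.54 ± 0.15), the lowest effect among them, in the same comparison in which UQCRC2 fell. SDHAF2, which helps attach the flavin to SDHA, fell from 116 to 58.1. TMEM70, for the ATP synthase, rose from 108 to 206, and PET100 and SURF1, for complex IV, rose from 315 to 583 and from 45.8 to 84.8. Under MG132, COA5, SCO2, UQCC3, ATPAF1, NDUFAF1 and SURF1 rose and LYRM7 fell with siJMJD6 among 48 tested (14.6%, near the 13.6% of all genes). After heat shock in siNT cells, and for MG132 against DMSO and HSF1 KO against siNT, 0 assembly factors were called by limma, with 3, 2 and 1 at an unadjusted p under 0.05. Over all tested genes only 4.09%, 0.266% and 1.28% were called in these comparisons, so a count of 0 in so short a list says little. An unadjusted p under 0.05 was held by 5.66% of all genes for MG132 against DMSO and 12.8% for HSF1 KO against siNT. For heat shock in siNT cells that share is not given here, so the 3 there say nothing particular about assembly factors.

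Among 8 subunits, carriers and inhibitors outside the naming rule, HIGD2A of complex IV fell from a mean of 113 to 51.4 normalised counts and C14orf2, a small subunit of the ATP synthase, from 2176 to 1679, while the ATP synthase inhibitor ATPIF1 rose from 393 to 492 with siJMJD6 after heat shock. Cytochrome c (CYCS) and cytochrome c1 (CYC1) were among the 5 that did not pass. Of 15 tested regulators of mitochondrial gene expression, PPARGC1B and PPRC1, coactivators of the PGC-1 family, fell after heat shock in siNT cells, from 19.5 to 6.87 and from 60.7 to 36.5. With siJMJD6 after heat shock, PPRC1 rose to 54.1 and C10orf2, the mitochondrial DNA helicase, from 43.3 to 64.7. SLIRP, which protects mitochondrial mRNA, fell from 1072 to 797, TFB1M from 39.1 to 24.2 and GABPB1, a subunit of GABP, from 30.1 to 16.3. TFAM, which packages mitochondrial DNA, was not called in any comparison. Over all tested genes, 4.09% were called after heat shock in siNT cells and 46.4% with siJMJD6 after heat shock.

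Of the 8 matches that are not subunits, 4 were tested after heat shock. UQCRHL, a copy of UQCRH, rose with siJMJD6 from 11.5, 14.9 and 22.3 to 25.3, 22.3 and 42.3 normalised counts (0.84 ± 0.30, limma adjusted p = 0.0224), with groups that barely parted and a call lost without single libraries (adjusted p up to 0.186). UQCRH itself, at a mean of 2038 against 21.1, was not called, and reads that fit both copies make the value of UQCRHL uncertain. The same holds for ATP5E and its copy ATP5EP2. ATP5S, a coupling factor that is not a subunit, fell from 19.4, 16.9 and 20.4 to 13.7, 6.48 and 11.7 (-0.82 ± 0.35, adjusted p = 0.0496), a call lost in most alternatives. ATP5SL and ATP5EP2 were not called. UQCRBP1, NDUFB2-AS1 and NDUFV2-AS1 were below 10 normalised counts in every library, and ATP5L2, a copy of ATP5L, was tested only in the MG132 table, where it was not called.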

How the data were processed

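RNA of 17 libraries in 7 groups was sequenced with QuantSeq FWD. The authors deposited a normalised count table, a signal that is not in whole reads, for each stress. FastQC 0.11.2, STAR 2.6.0, HTSeq and genome build hg38 are named per the submitters' processing notes. The sources used here name no annotation, strand setting, gene filter or scaling. Low values fell on near-whole steps in only some libraries, so read counts were not recovered and exact depth is unknown; all sample columns were used.

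Each table was fitted alone with limma 3.58.1 (R 4.3.3, trended moderated variance, all groups) on log2(value + 1), over genes with at least 10 in 2 (MG132) or 3 (heat shock) libraries. This scale understates the change of low genes. 6 contrasts were tested, with Benjamini-Hochberg adjustment over all tested genes at 0.05. The model was tested on simulated data. Summed shares were compared with exact permutation tests. Alternatives were pseudocounts, no filter, TMM factors (own code) or quantile normalisation, compared groups alone, no mean trend, a replicate block and each library left out. Named genes were, per comparison, the called members up to 8 by smallest adjusted p, or the largest rise and fall where none was called, with the 3 highest members of each complex, the core subunits, isoform pairs and members in 1 table; other members named were chosen after their values were seen. 1 member that the rule names is counted in the totals but not reported here by name. The members and lists were chosen with earlier results of these data known; the printed promoters were chosen after effects were seen. Figures used matplotlib 3.10.9 (Python 3.11.15).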

Additional observations from a re-analysis of the deposited data

Results flagged for a closer look

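For 4 subunit genes, siJMJD6 moved every library one way under MG132 and the other way after heat shock, relative to the siNT libraries of the same stress. NDUFS8 had a log2 fold change of 0.44 under MG132 and -0.74 after heat shock, NDUFA3 had 0.57 and -0.39, COX8A had 0.20 and -0.34, and NDUFB4 had 0.24 and -0.19. None of the MG132 values passed limma's test, and after heat shock NDUFS8, NDUFA3 and COX8A did. The difference between the stresses was not tested, since the tables were normalised separately. How many of all tested genes show the same pattern was not counted, so it is not shown to be particular to these 4 or to subunits.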

How the results depend on the processing

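Across all alternatives no called member changed sign. MG132 against DMSO and HSF1 KO against siNT had 0 called members throughout. For siJMJD6 against siNT under MG132, 8 calls became 2 with no filter, 1 with the compared groups alone and 1 with no mean trend, and leaving out single libraries gave 0 to 10. For HSF1 KO against siJMJD6, 6 became 3 with no mean trend and 0 to 10 with libraries left out. For heat shock against basal, 1 became 0 with no mean trend and 0 to 2. For siJMJD6 after heat shock, 43 became 28 with no mean trend and 32 to 44. The cause was not tested. Leaving out a library of the MG132 table leaves a lone sample assumed to vary like the other groups. Deviations from group means correlated between same-number libraries at 0.0447 to 0.368 in the MG132 table and -0.0348 to 0.0943 in the other. For DMSO they were 0.368 with siNT MG132 and 0.318 with siJMJD6 MG132, and 0.0447 between siNT and siJMJD6 under MG132. With 2 libraries in a group their deviations are mirror images, so libraries of unlike number give the same values with the sign reversed. Both DMSO values also share the same libraries. Samples of the MG132 table may be partly paired by number, which these values cannot decide and the main fit did not use. With the replicate block, calls numbered 12 for siJMJD6 under MG132, 41 for siJMJD6 after heat shock, 1 for heat shock and 0 for MG132. HSF1 KO libraries carry letters and had no block. With 2 libraries a group, small changes were not detectable in the MG132 table.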
